A study of Drosophila melanogaster with 24 samples.

Results

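Genes of fat storage, fat mobilization and lipogenesis were followed in *Drosophila melanogaster* populations selected for survival in high O2 and in their controls. The set held 10 genes, chosen by name with earlier results of these data known: Lsd-1, Lsd-2, bmm, Hsl, mdy, Akh, AkhR, FASN1, ACC and Desat1. Of these, 9 had a named probe set on the Affymetrix Drosophila Genome 2.0 array, with 10 probe sets in all among the 18769 tested, which name 11982 genes. AkhR had 2 probe sets, and no probe set carried the name Hsl, the hormone-sensitive lipase, which was therefore not analysed here.

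Both selected and control populations descended from a pool of 27 isogenic lines. RNA of whole organisms was measured in adults and in 3rd instar larvae, with 3 control and 3 hyperoxia-selected populations per stage and 2 arrays per population, hence 6 arrays per group and 24 in all. Each adult sample pooled 25 males and 25 females. Hyperoxia-selected adults were taken from 90% O2 and control adults from room air with 21% O2, so selection and the O2 level at collection cannot be told apart. For larvae, neither O2 level nor age is stated in the labels or the methods. The labels do not say whether the 2 arrays of a population were separate collections, so p-values measure the spread between these samples, which may in part be technical. Larval glue genes (4 genes) summed to a signal of 92.7 to 827 on adult arrays and 272093 to 539196 on larval arrays, in the order the stage labels give. Median signals of the arrays ranged from 410 to 697, and the number of arrays limits the precision.

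Flies store fat as triacylglycerol in lipid droplets, mostly in the fat body, an organ with the roles of liver and adipose tissue. Droplet coat proteins govern the access of lipases to the stored fat, and adipokinetic hormone, a glucagon-like peptide, calls on the stores through a receptor on fat body cells. New fat is built from acetyl-CoA by carboxylation, chain elongation and desaturation, and is then esterified to triacylglycerol. In whole organisms, fewer fat body cells and less RNA per cell cannot be told apart.

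In adults, Lsd-1 was the 1 probe set of the 10 that passed the test, and it was lower in hyperoxia-selected flies. The share of all 18769 probe sets that passed in adults was 0.357% (0.277% lower and 0.0799% higher). In larvae, 0 of the 10 probe sets passed, with 1.65% of all probe sets passing (0.868% higher and 0.778% lower), while 2 of the 10 had an unadjusted p under 0.05 by limma, as had 16.2% of all probe sets. The adult and the larval effect differed for 3 of the 10 probe sets, those of Lsd-1, ACC and the brighter probe set of AkhR, all with the adult effect below the larval one, against 1.97% of all probe sets (0.954% lower and 1.01% higher). Because the genes were chosen with earlier results known, these shares are set beside the counts as description and do not test the set. The median log2 fold change of the 10 probe sets was -0.23 in adults beside 0.06 over all probe sets, and 0.06 in larvae beside -0.11 over all probe sets. The balance of calls over all probe sets moved with the scaling. In adults 15 higher and 52 lower became 12 and 59 under quantile normalization and 0 and 14 under median centring, and in larvae 163 and 146 became 188 and 105, or 164 and 27. For the difference of the effects 190 and 179 became 100 and 228, or 42 and 286. These tests used limma on log2 signals, and a probe set passed at a Benjamini-Hochberg adjusted p under 0.05 over all probe sets. Signals of different probe sets have no common scale, so levels were compared only within a probe set.

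**Figure D1:**
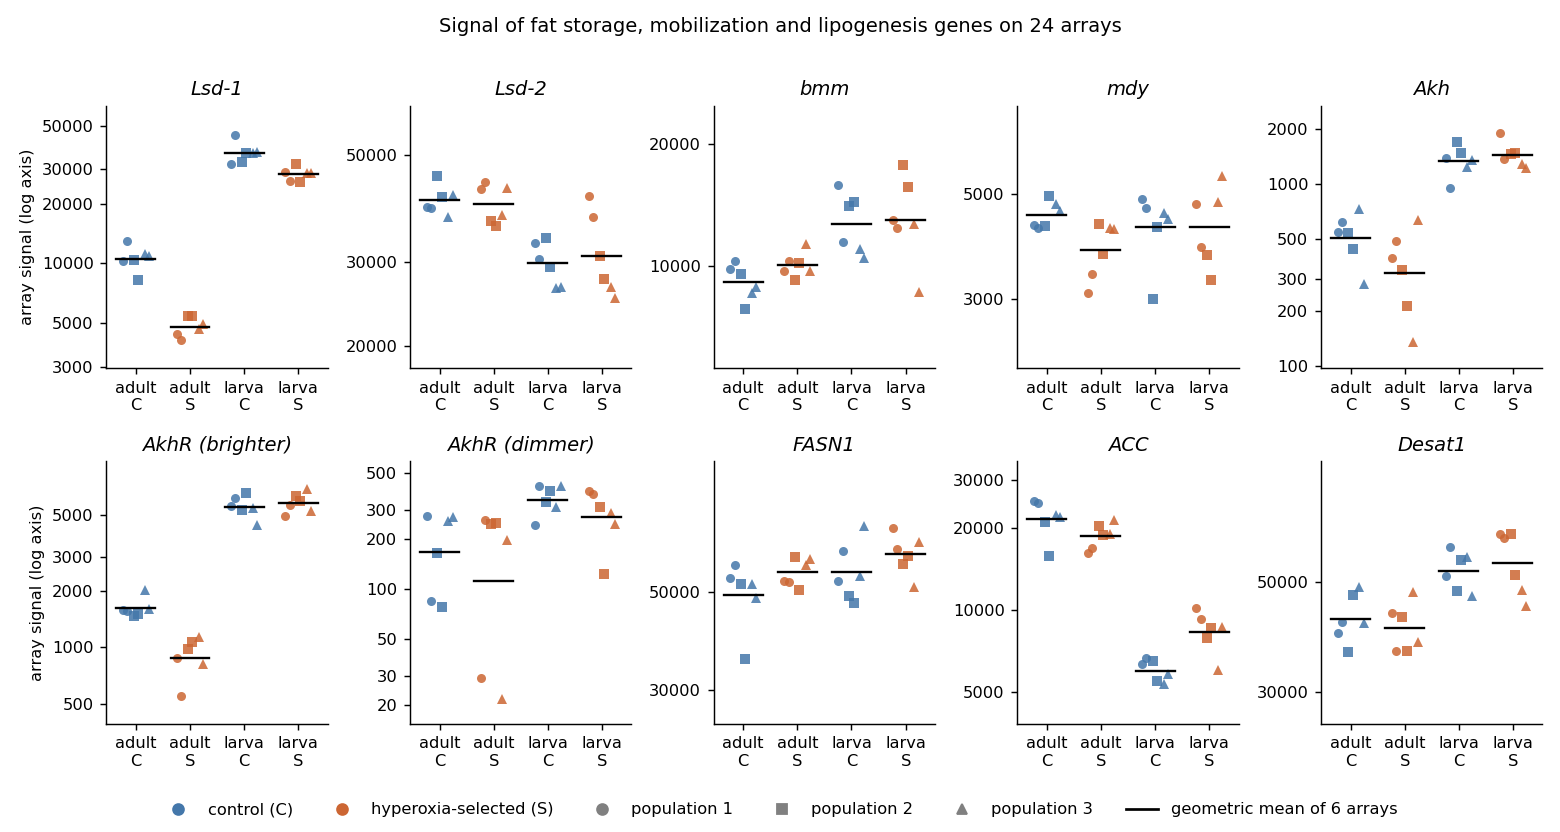
Array signal (linear units on a log axis) of the 10 probe sets in adult and larval control (C) and hyperoxia-selected (S) groups; each point is 1 array, its shape the population, and each bar the geometric mean of 6 arrays. Lsd-1 signals of selected adults (4119 to 5410) lay below all control adults (8206 to 12937), whereas Lsd-2 signals of the same adult groups overlapped.

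Lsd-1 (CG10374, probe set 1636510_a_at), a perilipin on the droplet surface that takes part in hormone-stimulated lipolysis, had the clearest difference between selected and control adults. Its signal in control adults was 8206 at the lowest, 10642 at the median and 12937 at the highest. In hyperoxia-selected adults the lowest signal was 4119, the median 4806 and the highest 5410. Every selected array lay below every control array, a separation in that direction seen in 1.55% of all probe sets in adults (0.852% in the other direction). Of the 10 probe sets, 2 were separated so in adults, both lower in selected flies, and 0 in larvae. The population signals, each the geometric mean of 2 arrays, were 11563, 9239 and 11048 in control populations 1 to 3, and 4243, 5410 and 4805 in selected populations 1 to 3. All 3 selected populations were thus below all 3 control populations. With 3 populations per group such a separation arises readily, and its share over all probe sets was not counted, here or for the genes below. The signal fell by 1.14 on the log2 scale (SE 0.13, 95% interval -1.42 to -0.86, n = 6 arrays per group; limma adjusted p = 0.00722), or 2.20-fold, and by p this probe set ranked 5 among 18769. Without control population 3 the adjusted p was 0.0709 at a log2 fold change of -1.11, and with the populations' means in place of arrays, 3 against 3, it was 0.271.

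In larvae, the Lsd-1 signal was 31892 at the lowest, 36221 at the median and 44838 at the highest in controls, and 25964, 28734 and 31959 in selected larvae. The groups met at their edges, with 5 of 6 selected arrays below every control array. Population signals were 37815, 34287 and 36507 in controls and 27598, 28806 and 28733 in selected larvae, so the populations did not overlap. The log2 difference of -0.35 (SE 0.12) did not pass the test (limma adjusted p = 0.162), and did under quantile normalization, at -0.46 with an adjusted p of 0.0457, and in an ordinary linear model, at 0.0449. With each array centred on its median it was -0.17 (adjusted p = 0.727). Of 15 alternatives only those 2 passed, and population means gave an adjusted p of 0.388. The adult effect lay below the larval effect, with a difference of -0.79 (SE 0.15, limma adjusted p = 0.00881). That adjusted p was 0.0711 without control population 3 and 0.0684 without selected population 1.

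Lsd-2 (CG9057, probe set 1637359_at), the other fly perilipin, which shields stored fat from lipases, had close levels in both adult groups. Its signal in control adults ran from 37133 through a median of 39884 to 45162, and in selected adults from 35546 through 39955 to 43846. The adult groups overlapped over most of their range, and the log2 difference was -0.02 (SE 0.10, 95% interval -0.24 to 0.19; limma adjusted p = 0.959). In larvae the signal ran from 26412 through 29815 to 33652 in controls and from 25164 through 29160 to 40996 in selected larvae. Both arrays of selected population 1 (a population signal of 39061) lay above all control larvae, while the other selected populations, at 29116 and 25843, did not. The larval difference was 0.05 (SE 0.14, 95% interval -0.26 to 0.37; limma adjusted p = 0.900), with a sign that turned to -0.062 under quantile normalization.

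The triglyceride lipase gene bmm (CG5295, probe set 1640754_at) encodes Brummer, the fly counterpart of adipose triglyceride lipase. Control adults had signals of 7821 at the lowest, 9227 at the median and 10287 at the highest, against 9243, 9960 and 11351 in selected adults. Of the 6 selected arrays, 2 lay above all controls and the rest overlapped them. The adult difference was 0.14 on the log2 scale (SE 0.10, 95% interval -0.08 to 0.37; limma adjusted p = 0.671). Larval signals spread more widely, from 10452 through 12775 to 15894 in controls and from 8613 through 12838 to 17756 in selected larvae. The selected larvae thus held both the lowest and the highest value of that stage, and the difference was 0.03 (SE 0.19, 95% interval -0.38 to 0.45; limma adjusted p = 0.955), which turned to -0.0043 under quantile normalization.

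Akh (CG1171, probe set 1631816_at) encodes adipokinetic hormone, made by neuroendocrine cells of the corpora cardiaca. Its adult signal was 283 at the lowest, 539 at the median and 727 at the highest in controls, and 136, 364 and 633 in selected flies. The groups overlapped, and the extremes of both came from population 3: its 2 arrays differed by 1.36 on the log2 scale in controls and by 2.22 in selected flies. The log2 difference of -0.63 (SE 0.41, 95% interval -1.52 to 0.26) did not pass (limma adjusted p = 0.625). In larvae the signal ran from 941 through 1364 to 1691 in controls and from 1209 through 1406 to 1900 in selected larvae, an overlap with a difference of 0.11 (SE 0.17; limma adjusted p = 0.800).

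AkhR (CG11325) encodes the G protein-coupled receptor for adipokinetic hormone. Its brighter probe set, 1635442_a_at, had adult signals of 1460 at the lowest, 1571 at the median and 2026 at the highest in controls, and 552, 933 and 1136 in selected flies. As for Lsd-1, every selected adult array lay below every control array. Population signals were 1571, 1481 and 1799 in control populations 1 to 3 and 699, 1022 and 962 in selected populations 1 to 3. Selected population 1 was the lowest, and no selected population reached a control one. The log2 difference was -0.87 (SE 0.18, 95% interval -1.27 to -0.47), 1.83-fold lower, and its limma adjusted p of 0.0831 missed the threshold. It passed under 5 of 15 alternatives: 0.0400 with quantile normalization, 0.0417 with a floor on dim signals, 0.0475 with arrays taken as independent, 0.00366 with all 24 arrays in 1 fit and 0.0436 in an ordinary linear model. The adjusted p was above 0.05 with population means (0.369), median centring (0.113), the population number as a replicate block (0.0663) and a filter on dim probe sets (0.0631). No fit with 1 population removed passed either (0.0958 to 0.331).

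In larvae the brighter AkhR probe set overlapped between groups, from 4447 through 5540 to 6589 in controls and from 4991 through 5840 to 6897 in selected larvae. The difference there was 0.07 (SE 0.13; limma adjusted p = 0.854). The adult effect lay below the larval effect by the test of the difference itself, at -0.94 (SE 0.20, limma adjusted p = 0.0195). This call was lost without control population 1 (0.0718), control population 3 (0.123) or selected population 1 (0.0501). The dimmer AkhR probe set, 1629609_at, ran from 77.5 through 211 to 275 in control adults and from 21.7 through 222 to 258 in selected adults. Of its selected adult arrays, 2 were under the 20th percentile of their array, and the groups overlapped. Its difference was -0.56 in adults (SE 0.79, limma adjusted p = 0.836) and -0.34 in larvae (SE 0.29, limma adjusted p = 0.612).

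mdy (CG31991, probe set 1636579_s_at) encodes midway, a diacylglycerol acyltransferase that makes the last step of triacylglycerol synthesis. Its adult signal ran from 4244 through 4453 to 4943 in controls and from 3093 through 3979 to 4329 in selected flies. Single arrays overlapped. The population signals, 4275, 4604 and 4679 in controls against 3238, 4023 and 4230 in selected flies, did not, which says little with so few populations. The log2 difference was -0.25 (SE 0.11, 95% interval -0.50 to 0.00; limma adjusted p = 0.452). In larvae it ran from 3009 through 4491 to 4885 in controls and from 3294 through 4314 to 5462 in selected larvae, with a difference of 0.00 (SE 0.17; limma adjusted p = 0.999).

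ACC (CG11198, probe set 1636923_a_at) encodes acetyl-CoA carboxylase, which makes malonyl-CoA and commits carbon to fatty acids. Adult signals were 15799 at the lowest, 22222 at the median and 25135 at the highest in controls, and 16252, 18896 and 21496 in selected flies, an overlap with a difference of -0.21 (SE 0.14; limma adjusted p = 0.629). In larvae the order was the opposite: 5330 at the lowest, 6047 at the median and 6644 at the highest in controls, against 5992, 8592 and 10120 in selected larvae. Of the 6 selected larval arrays, 5 lay above all controls, the exception being 1 array of selected population 3. Population signals were 6470, 5947 and 5557 in control larvae and 9678, 8221 and 7186 in selected larvae, with no overlap. The larval difference of 0.47 (SE 0.14, 95% interval 0.16 to 0.78) did not pass (limma adjusted p = 0.119). It passed under 2 of 15 alternatives, with all 24 arrays in 1 fit (0.0376) and with the population number as a replicate block (0.0427). With population means the adjusted p was 0.374, and fits with 1 population removed gave 0.0522 to 0.348.

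The adult effect on ACC lay below the larval effect, with a difference of -0.68 (SE 0.18, limma adjusted p = 0.0463). This was the least firm of the 3 calls in that comparison, as the adjusted p was 0.0653 under quantile normalization, 0.0547 with the replicate block and 0.0558 with arrays taken as independent. It was also lost without control population 1 (0.142), control population 3 (0.178), selected population 1 (0.284) or selected population 2 (0.107). With the populations' means in place of arrays, the adjusted p of the difference between stages was 0.242 for Lsd-1, 0.257 for AkhR and 0.351 for ACC.

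**Figure D2:**
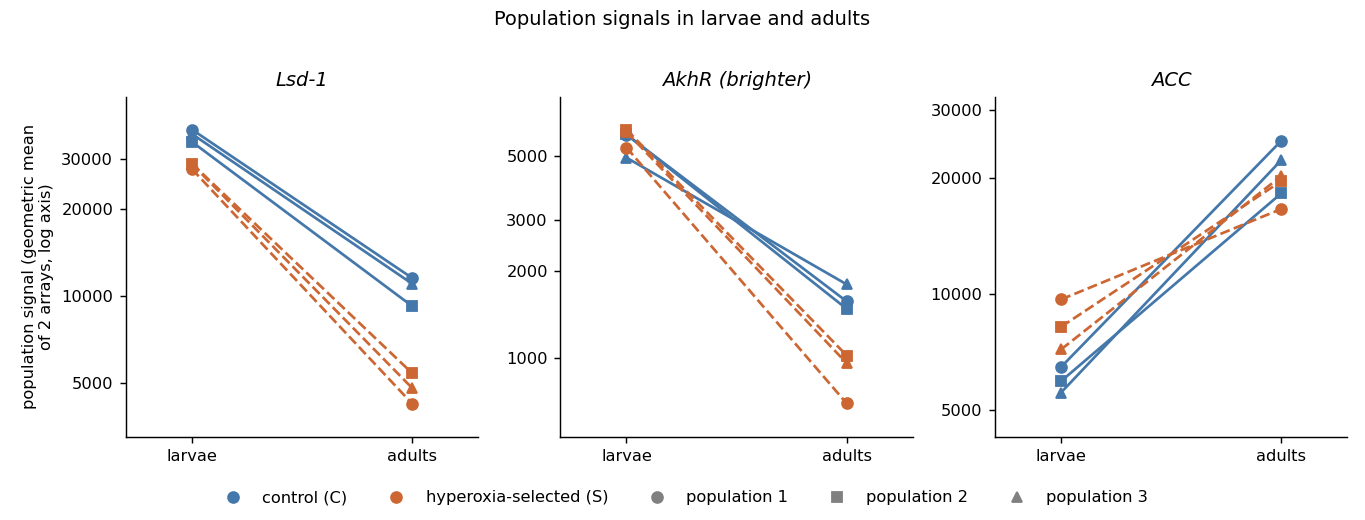
Population signal (geometric mean of 2 arrays, log axis) of Lsd-1, the brighter AkhR probe set and ACC in larvae and adults, with 1 line per population (solid for control, dashed for hyperoxia-selected). The lines of control and selected populations are farther apart in adults than in larvae for Lsd-1 and AkhR, and for ACC selected populations are the higher ones in larvae (7186 to 9678 against 5557 to 6470) and overlap with controls in adults.

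FASN1 (CG3523, probe set 1624549_at) encodes a fatty acid synthase, which extends malonyl-CoA into long chains. Its adult signal ran from 35266 through 51982 to 57517 in controls and from 50419 through 55030 to 59915 in selected flies. The lowest value belonged to 1 control array and the groups otherwise overlapped, with a difference of 0.17 (SE 0.13, 95% interval -0.13 to 0.46; limma adjusted p = 0.706). Larvae gave a like picture, from 47205 through 53595 to 70240 in controls and from 51222 through 61388 to 69500 in selected larvae. That difference was 0.13 (SE 0.13, 95% interval -0.16 to 0.42; limma adjusted p = 0.673).

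Desat1 (CG5887, probe set 1628213_s_at) encodes a delta-9 fatty acid desaturase. Adult signals ran from 36205 through 41427 to 48939 in controls and from 36291 through 40170 to 47798 in selected flies. The groups covered nearly the same range, with a difference of -0.06 (SE 0.12, 95% interval -0.33 to 0.21; limma adjusted p = 0.890). In larvae they ran from 46828 through 53465 to 58959 in controls and from 44836 through 56562 to 62788 in selected larvae. Selected larvae thus held both the lowest and the highest value, and the difference of 0.06 (SE 0.13; limma adjusted p = 0.873) turned to -0.023 under quantile normalization.

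**Figure D3:**
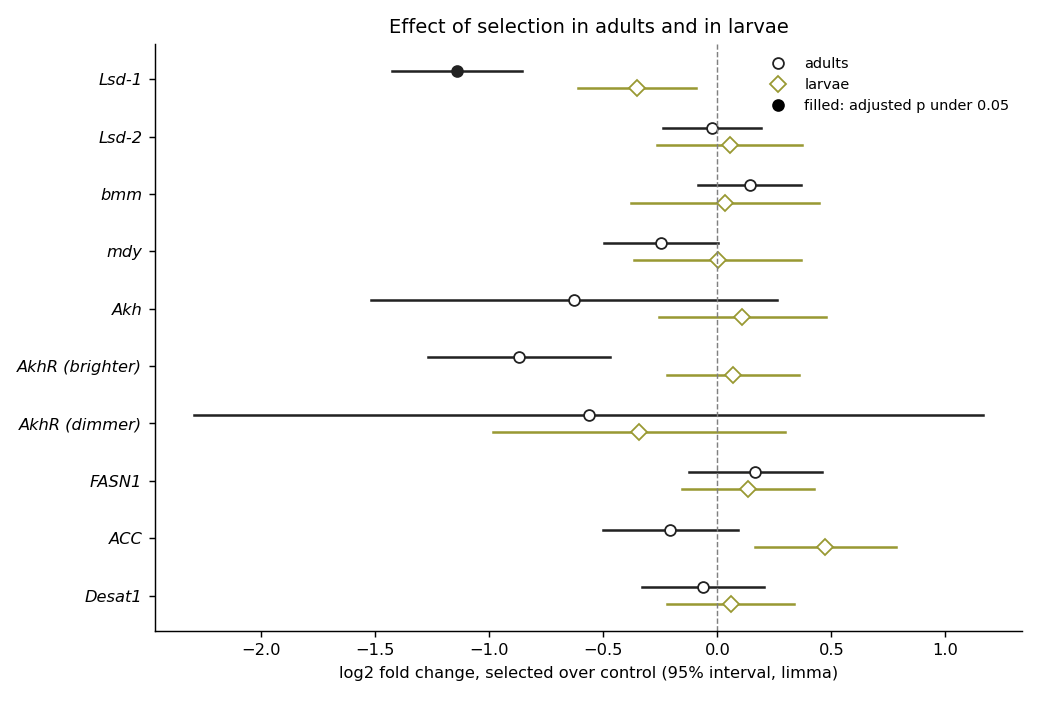
Log2 fold change of hyperoxia-selected over control samples with its 95% interval from limma, for each probe set in adults (circles) and larvae (diamonds); a filled symbol marks an adjusted p under 0.05. Lsd-1 in adults (-1.14) is the 1 filled symbol. The intervals of Lsd-2, bmm, mdy, Akh, the dimmer AkhR probe set, FASN1 and Desat1 include 0 in both stages. Quantile normalization turns the sign of the larval values of Lsd-2, bmm and Desat1, all close to 0.

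Between the stages, 7 of the 10 probe sets differed in control populations, 2 higher and 5 lower in adults than in larvae, where 51.0% of all probe sets passed (28.9% higher and 22.1% lower). In hyperoxia-selected populations 7 also passed, again 2 higher and 5 lower, where 53.6% of all probe sets passed (34.1% higher and 19.4% lower). Adult and larval arrays did not overlap for 2 higher and 4 lower probe sets in controls (22.5% and 15.5% of all) and for 1 higher and 3 lower in selected populations (25.1% and 13.8% of all). Against so large a background the counts say little about the set, and the values that follow describe single genes. Lsd-1 and AkhR (brighter probe set) had their adult arrays below all larval arrays in both kinds of population. In controls, Lsd-1 was lower in adults by a log2 difference of -1.78 (SE 0.11, limma adjusted p = 2.31e-12), and in selected populations by -2.56 (SE 0.11, limma adjusted p = 4.59e-15). The brighter AkhR probe set was lower by -1.79 in controls and -2.73 in selected populations (SE 0.14 in both; limma adjusted p = 2.63e-10 and 2.16e-13). Akh was lower as well, by -1.40 and -2.14 (SE 0.28 in both; limma adjusted p = 0.000184 and 7.00e-07), without overlap of adult and larval arrays in either. The hormone and its receptor thus had lower signals in adults than in larvae. The 3 measured fat body markers (Lsp2, Fbp1 and Fbp2) were also lower in adults in both kinds of population. Their median summed signal was 45040 in control adults and 321744 in control larvae, and 33339 and 314118 in selected ones. Single markers differed by -11.7 to -1.70 in controls and by -11.1 to -2.17 in selected populations, so the sum is no gauge of fat body amount. Lsp1alpha, Lsp1beta, Lsp1gamma, Adh and to, also in that list, had no named probe set. The part of the fat body in the values of Lsd-1 and AkhR was not tested. ACC stood the other way, 1.85 higher in control adults and 1.17 higher in selected adults than in larvae (SE 0.12 in both; limma adjusted p = 1.50e-11 and 2.26e-08).

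Differences between stages were smaller for the remaining genes and depended more on scaling and on single populations. Lsd-2 was higher in adults by 0.44 in controls (SE 0.11, limma adjusted p = 0.00158) and by 0.36 in selected populations (0.00741), the latter lost without selected population 3 (0.23, adjusted p = 0.176) and with arrays centred on their median (0.20, adjusted p = 0.299). After quantile normalization the Lsd-2 differences were 0.92 and 0.95. bmm was lower in adults, at -0.48 in controls (SE 0.14, limma adjusted p = 0.00497) and -0.37 in selected populations (0.0259). Without control population 2 the former had an adjusted p of 0.106, and the latter lost its call without selected population 1 (0.0975), without selected population 2 (-0.17, adjusted p = 0.401) and under quantile normalization (-0.25, adjusted p = 0.132). Desat1 was at -0.32 in controls (limma adjusted p = 0.0166) and -0.44 in selected populations (0.00141) as deposited, and at 0.27 and 0.21 after quantile normalization, so its direction between stages is not settled. Its call in controls was also lost without control population 1 (0.169) or control population 2 (0.0659), under median centring (-0.21, adjusted p = 0.285) and with population means (0.0763). Population means likewise ended the calls of Lsd-2 (0.0548 in controls and 0.102 in selected populations) and bmm (0.0545 and 0.123). FASN1 did not pass, at -0.17 in controls and -0.14 in selected populations, and turned to 0.40 and 0.53 with adjusted p of 0.00244 and 0.000166 after quantile normalization. Signals of FASN1 and Desat1 lay above 98.0% of all probe sets on every array. mdy did not pass either, at 0.09 in controls, which turned to -0.19 under quantile normalization, and -0.16 in selected populations, which became -0.51 there with an adjusted p of 0.00169. The dimmer AkhR probe set was at -1.05 and -1.27 with SE of 0.55 (limma adjusted p = 0.123 and 0.0579), and the latter passed without selected population 2, at -2.07 with an adjusted p of 0.0113. This probe set also passed in controls with the floor on dim signals (0.0194), and in selected populations with quantile normalization (0.0288), median centring (0.0294) and the filter on dim probe sets (0.0470).

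**Figure D4:**
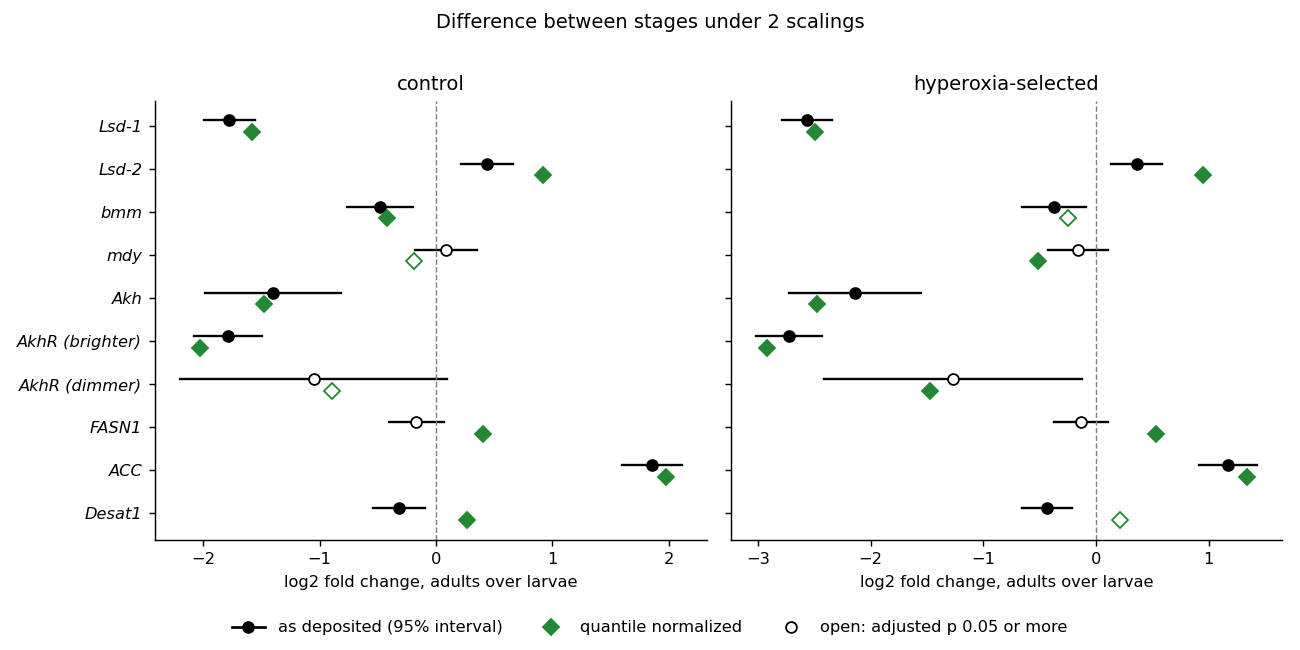
Log2 fold change of adults over larvae in control (left) and hyperoxia-selected populations (right), as deposited (circles with 95% intervals) and after quantile normalization (diamonds); open symbols had an adjusted p of 0.05 or more. Lsd-1, Akh, the brighter AkhR probe set and ACC keep their side of 0 under both scalings, whereas Desat1 and FASN1 change sign (Desat1 in controls from -0.32 to 0.27), as does mdy in controls.

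The wider pathways were described through 6 lists with 83 genes, of which 72 were measured, each by its brightest probe set. In adults 0 of the 72 genes passed the limma test, and their median log2 fold change was -0.07 beside 0.06 over all probe sets. In larvae 3 of the 72 passed, all higher in selected larvae, with a median of 0.13 beside -0.11. The adult and larval effects differed for 6 of the 72, 1 with a higher and 5 with a lower adult effect, and the median difference was -0.21 beside 0.16 over all probe sets. Over all probe sets, 0.357%, 1.65% and 1.97% passed in these comparisons. The lists were likewise chosen with earlier results known, so these shares do not test the lists.

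Triacylglycerol synthesis (12 measured) and the mobilization and signalling list (13 measured) each had 1 gene that passed, both in the difference between stages. Fitm, of a family that helps lipid droplets to form, had a mean signal of 4025 ± 339 (SD) in control adults and 3413 ± 312 in selected adults, and of 2150 ± 205 in control larvae and 2763 ± 325 in selected larvae. Adult selected flies were thus lower and selected larvae higher, and the difference of the 2 effects was -0.60 (SE 0.13, limma adjusted p = 0.0229). Its other probe set gave -1.10 (adjusted p = 0.00725). Lip4, a lipase-family gene, had 1408 ± 187 in control and 956 ± 238 in selected adults, and 3616 ± 582 in control and 5095 ± 698 in selected larvae. The 2 effects of Lip4 differed by -1.09 (SE 0.21, limma adjusted p = 0.0108). Neither gene passed within a stage, and both calls were lost without control population 1 (Fitm 0.127, Lip4 0.0536), control population 3 (0.0821 and 0.0822) or selected population 1 (0.163 and 0.0551).

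Among 17 measured genes of beta-oxidation, the breakdown of fatty acids in mitochondria and peroxisomes, the larval median was 0.25 beside -0.11 over all probe sets, and 2 passed. Acox57D-p, a peroxisomal acyl-CoA oxidase, had a mean signal of 5420 ± 592 in control and 8349 ± 1106 in selected larvae, a log2 difference of 0.62 (SE 0.12, limma adjusted p = 0.0315). Echs1, a mitochondrial enoyl-CoA hydratase, had 12953 ± 2048 in control and 21449 ± 3095 in selected larvae, a difference of 0.73 (SE 0.15, limma adjusted p = 0.0349). In both genes every selected larval array lay above every control array, a separation in that direction seen in 1.85% of all probe sets in larvae (2.27% in the other direction). The adult effect lay below the larval effect for Acox57D-p (-0.63, adjusted p = 0.0125), for Hnf4, a nuclear receptor that drives fatty acid catabolism (-0.49, adjusted p = 0.0364), and for CPT2, which works in the import of long chains into mitochondria (-0.55, adjusted p = 0.0451). The calls of Echs1, Hnf4 and CPT2 were lost in each fit with 1 of the 6 populations removed, with adjusted p from 0.0542 to 0.159, from 0.0703 to 0.168 and from 0.0591 to 0.259. Those of Acox57D-p were kept only without selected population 3, and otherwise reached 0.167 in larvae and 0.0974 in the difference between stages. With the replicate block Hnf4 had an adjusted p of 0.0547, and CPT2 had 0.0573 under median centring and 0.0534 with arrays taken as independent.

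Of 8 measured desaturase genes, CG9743, a desaturase-like gene, passed in larvae, with a mean signal of 8802 ± 2027 in controls and 18329 ± 2922 in selected larvae. Its selected larval arrays were all above the controls, and the log2 difference was 1.08 (SE 0.18, limma adjusted p = 0.0153). The CG9743 call was lost without control population 1 (0.0572), control population 3 (0.0735) or selected population 2 (0.0712). Of 13 measured genes of fatty acid synthesis and its supply, Mondo, a sugar-responsive transcription factor that acts on lipogenic genes, had the adult effect above the larval one (0.54, SE 0.13, limma adjusted p = 0.0308). Its signal was 7552 ± 695 in control and 9067 ± 992 in selected adults, and 7696 ± 803 in control and 6335 ± 271 in selected larvae. The Mondo call was kept only without selected population 3, with adjusted p up to 0.203 otherwise, and was 0.498, at a difference of 0.27, with arrays centred on their median. With population means in place of arrays, 0 of these pathway calls held: the adjusted p was 0.277 for CG9743, 0.306 for Acox57D-p and 0.258 for Echs1 in larvae, and from 0.257 (Lip4) to 0.344 (Hnf4) for the differences between stages. Of 9 measured lipid transport genes none passed by limma. The smallest p there were those of Acbp2, an acyl-CoA binding protein (difference between stages -0.72, adjusted p = 0.0969), and Apoltp, a lipid transfer particle protein (0.43 in adults, adjusted p = 0.237).

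**Figure D5:**
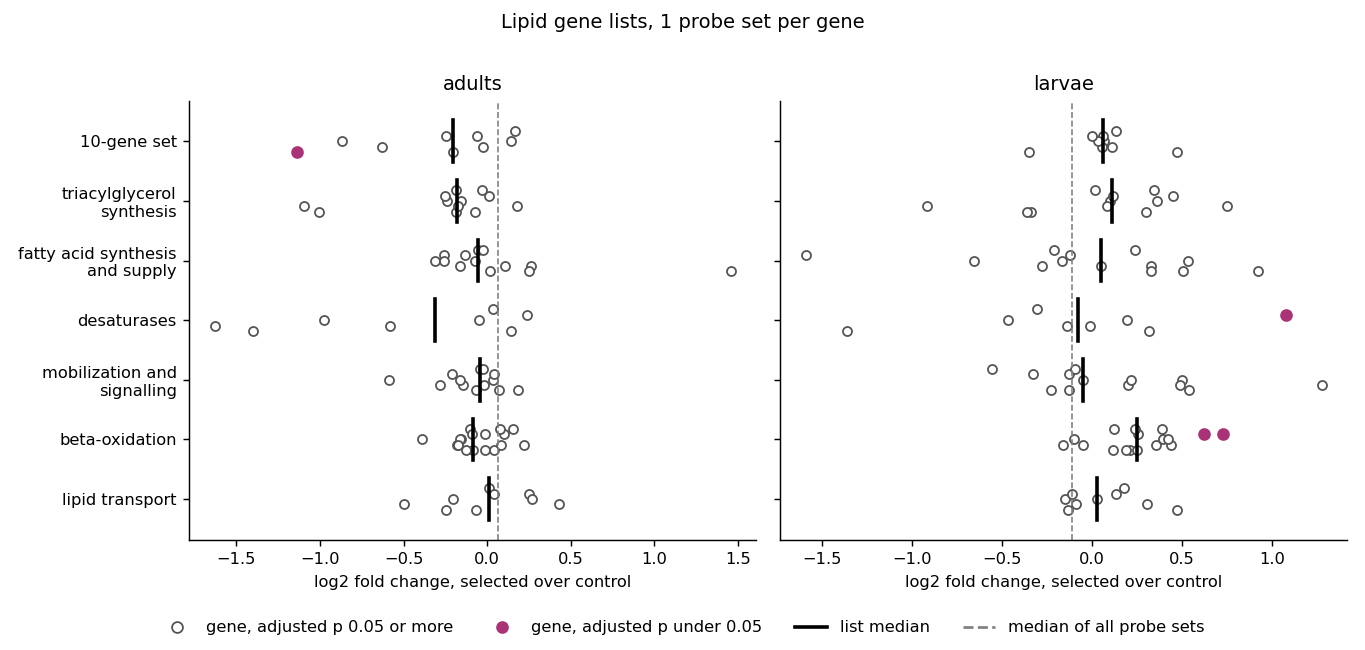
Log2 fold change of hyperoxia-selected over control samples in adults (left) and larvae (right) for each measured gene of the 10-gene set (9 genes) and of 6 lipid gene lists; filled points had an adjusted p under 0.05, bars are list medians and the dashed line is the median of all probe sets. Beta-oxidation has the list median farthest above the dashed line in larvae (0.25 against -0.11), and in adults the 1 filled point is Lsd-1.

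Markers of fat body and muscle were set beside the adult differences of Lsd-1 and AkhR. The summed signal of 3 fat body genes (Lsp2, Fbp1 and Fbp2) ran from 39189 to 49517 in control adults and from 23808 to 40867 in selected adults, nearly all of it Lsp2 (44673 ± 3737 against 32015 ± 6950), whose log2 difference of -0.51 did not pass (limma adjusted p = 0.273). Fbp1 was at -0.86 and Fbp2 at 0.55, so the 3 markers did not share a direction, and 0 of them passed by limma. Fbp1 and Fbp2 had little signal in adults, so their signs say little. All 8 muscle genes had negative log2 differences in selected adults, from -4.07 to -0.24. Of them, 3 passed as lower by limma (Act88F, fln and TpnC4), where 0.277% of all probe sets passed as lower. The list's sum ran from 87250 to 137792 in control adults and from 52811 to 87036 in selected adults. In larvae the 8 muscle genes were negative as well, from -1.40 to -0.13, with 0 passing by limma, where 61.3% of all probe sets were negative. The part of these tissues in the Lsd-1 and AkhR differences was not tested. Of the egg-shell, yolk and glue markers, 0 passed for selection in adults or in larvae by limma. In the difference of the adult and larval effects, 1 of 8 egg-shell genes passed as higher, as did 1.01% of all probe sets. Larval log2 differences were all negative for egg-shell genes (-2.29 to -0.53) and yolk protein genes (-1.65 to -1.08). In larvae, 8 egg-shell genes summed to 2924 to 20125 in controls and 2169 to 3332 in selected larvae, and 3 yolk protein genes to 732 to 11710 and 729 to 4136. The part of that signal in the larval values was not tested.

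Across the 24 arrays, the patterns most like that of Lsd-1 were those of CG4250, Obp56d and fau. After each probe set was centred on its mean per stage, their log2 signals differed from those of Lsd-1 by a root mean square of 0.23, 0.24 and 0.26, where the median over 11569 probe sets was 0.57. Nearest to FASN1 were Idgf4, Vha16-1 and RpL37-1 (0.13, 0.13 and 0.15, where the median was 0.38). These values are a description over 12 adult and 12 larval arrays scaled to 1 common level.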

How the data were processed

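RNA of whole adults and larvae was measured on 24 one-colour arrays. The values deposited by the authors are intensity values of probe sets, linear and not logged. Their methods name MBEI in dChip and RMA but not the source of these values. The mean signal after trimming 2% of values at each end was 2500.1 on every array, so the arrays shared a scale and were not normalized again.

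After 183 control probe sets were left out of 18952, signals were floored at 1.0 and log2-transformed. Per stage, 12 arrays were fitted by lmFit and eBayes of limma 3.58.1 (R 4.3.3), where the 2 arrays of a population formed a random block (correlation within a population 0.133 in adults and 0.153 in larvae). The difference of the 2 selection effects and the differences between stages came from a fit of all 24 arrays, with adult and larval arrays of a population in 1 block (correlation 0.0425). That correlation is below those within a stage, so this block allows little for the likeness of 2 arrays of the same stage. For the difference of effects, SE were 0.150 (Lsd-1), 0.201 (brighter AkhR probe set) and 0.175 (ACC). With arrays taken as independent they were 0.154, 0.206 and 0.178, so the block did not widen them. P-values are two-sided and adjusted by Benjamini-Hochberg over 18769 probe sets. The fits per stage were tested on simulated data, and the fit of all 24 arrays was not. Groups, populations and arrays came from the labels, and every column of values had its sample.

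Probe sets were named from the platform annotation, with symbols updated through gene identifiers: 13646 held 1 gene, and no name was given to 402 with several genes or to 4721 that the annotation used here does not list. The named genes are all probe sets of the set, list genes that passed in the adult, larval or interaction test (at most 3 per list and test, or 2 by smallest p where none passed), and the 3 probe sets nearest in pattern to Lsd-1 and FASN1. The pathway lists cover triacylglycerol synthesis, fatty acid synthesis and supply, desaturases, mobilization and signalling, beta-oxidation and lipid transport; marker lists cover fat body, muscle, egg shell, male, larval and adult genes. For 8 male-specific genes, 0 passed for selection in either stage by limma, and their median log2 fold change was 0.40 in adults and -0.54 in larvae. Members and lists were chosen with earlier results of these data known. Quantile normalization, median centring, a floor and a filter at the 20th percentile, a replicate block, independent arrays, population means, a joint fit, an ordinary linear model and leaving out each population were tried as alternatives. Tables and plots came from matplotlib 3.10.9, pandas 2.3.3 and numpy 2.4.6 under Python 3.11.15.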

Additional observations from a re-analysis of the deposited data

Results flagged for a closer look

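The effect of selection differed between adults and larvae, by the test of the difference itself, for 9 of the named genes. Pathway genes were named for passing a test, this one included, so the count of 9 was set in part by that choice. Over all probe sets 1.97% passed this test. With population means in place of arrays no call of the 9 held (limma adjusted p from 0.242 to 0.351). The adult log2 fold change less the larval one was -0.79 for Lsd-1, -0.94 for the brighter AkhR probe set and -0.68 for ACC among the 10-gene set. Among the pathway genes it was -0.60 for Fitm, 0.54 for Mondo, -1.09 for Lip4, -0.63 for Acox57D-p, -0.49 for Hnf4 and -0.55 for CPT2.

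Single arrays stood apart from the other 5 of their group in 3 of 80 groups examined, and chance gives about 1 in 20. For mdy, the first array of control population 2 in larvae had a signal of 3009 where the others had 4263 to 4885, a gap of 0.668 of the group's range. For the brighter AkhR probe set, the first array of control population 3 in adults had 2026 against 1460 to 1597, a gap of 0.758 of the range. For Acbp2, the same array had 71456 against 47892 to 55932, a gap of 0.659 of the range. The critical gap for 6 arrays is 0.625.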

How the results depend on the processing

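The number of the 10 probe sets that passed was 1 in adults, 0 in larvae, 3 for the adult less the larval effect (here, between effects), and 7 between stages in control and in selected populations. Adults gave 2 with quantile normalization, a floor, independent arrays, all 24 arrays in 1 fit and an ordinary linear model, and 0 with population means. Larvae gave 1 with quantile normalization, the replicate block, all 24 arrays in 1 fit and the ordinary model. With population means the difference between effects gave 0 and the stages in controls 4. Leaving out 1 population in turn gave 0 to 1 in adults, 0 in larvae, 0 to 3 for the difference between effects, 5 to 7 between stages in controls and 6 to 7 in selected populations. With the population number as a replicate block the counts were 1 in adults, 1 in larvae and 2 between effects. Between stages that setting instead used a fixed block per population, which paired its adults and larvae, and gave 7 and 7. The labels do not say whether control and selected populations with the same number are linked. Their deviations correlated from -0.084 to 0.0048 in adults and from -0.00026 to 0.12 in larvae, which does not settle it. Signs turned under quantile normalization for Lsd-2 in larvae (-0.062) and between effects (0.031), bmm in larvae (-0.0043), Desat1 in larvae (-0.023), and between stages for mdy in controls (-0.19), FASN1 (0.40 and 0.53) and Desat1 (0.27 and 0.21). They turned under median centring for bmm (-0.16) and FASN1 (-0.23) between effects, and with the floor for the dimmer AkhR probe set (0.34). Leaving out 1 population moved Lsd-2 from -0.085 to 0.045 in adults, -0.12 to 0.18 in larvae and -0.21 to 0.031 between effects. The same moved bmm from -0.14 to 0.19 in larvae and -0.081 to 0.31 between effects, and mdy from -0.13 to 0.14 in larvae and -0.050 to 0.21 between stages in controls. It moved the dimmer AkhR probe set from -1.02 to 0.21 and FASN1 from -0.044 to 0.13 between effects. In larvae it moved the brighter AkhR probe set from -0.020 to 0.13 and Desat1 from -0.033 to 0.18. The cause was not tested. Quantile normalization and median centring moved the median of all probe sets by 0.11 and 0.18 in larvae, -0.15 and -0.27 between effects, and -0.22 and -0.16 between stages in selected populations; median centring moved it by 0.11 in controls.

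Fits that leave out a population hold fewer arrays, and 3 populations per group limit the precision. Depth cannot be counted on arrays. Of the set, only the dimmer AkhR probe set had arrays under the 20th percentile of signals.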
